A study of Mus musculus with 34 samples.

Results

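The keratin genes were followed in the distal colon of mice with recurrent colitis. The members are all probes whose symbol in the platform annotation is Krt followed by a number and at most 1 letter, which gave 54 probes for 47 genes out of 25697 probes and 16593 named genes on the array. All 54 probes carried a symbol that RefSeq also uses. Of the 47 genes, 6 are keratins of simple, single-layered epithelium (Krt7, Krt8, Krt18, Krt19, Krt20 and Krt23), and 41 belong to stratified squamous epithelium, to cornea, to hair and other skin appendages, or, for Krt222, to no such class. Type I keratins are acidic and type II keratins are basic, and the genes lie in 1 cluster on chromosome 11, with 22 of the type I genes measured and Krt222, and 1 on chromosome 15, with the 23 type II genes and the type I gene Krt18.

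Keratins are the intermediate filaments of epithelial cells. A type I and a type II keratin pair with each other and polymerise into filaments that tie into desmosomes and hemidesmosomes and carry mechanical load. The columnar cells of the colon build theirs mainly from KRT8 with KRT18, KRT19 and KRT20, whereas stratified epithelium uses KRT5 with KRT14 in its basal layer, KRT4 with KRT13 above it in moist mucosa, KRT1 with KRT10 above it in skin, and KRT6 with KRT16 and KRT17 during wound repair. The lining of the colon is columnar, and stratified squamous epithelium begins where the rectum meets the anal canal.

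All animals were female BALB/c mice, 8 weeks old. Colitis was induced with the hapten TNBS (2,4,6-trinitrobenzene sulfonic acid), put on the shaved back skin in ethanol on day 0 and given in ethanol through the rectum on day 7 (0.75 mg), day 14 (1.5 mg) and day 21 (2.25 mg). Groups of 5 mice were examined on days 9, 16 and 23, which is 2 days after an instillation, and on days 14, 21 and 28, which is 7 days after one. The 4 healthy control mice are labelled as healthy, and no ethanol-only group was analysed here, so TNBS and its ethanol vehicle cannot be told apart. Pieces of distal colon were profiled whole, 1 array for each mouse (34 arrays), and fewer cells of a type and less RNA per cell cannot be told apart in such samples.

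The values are log2 probe intensities after quantile normalisation, so every array had a median between 4.77 and 4.78. The highest value over all arrays was 15.55. Background was set on each array from 1326 probes for olfactory, trace amine and vomeronasal receptors, genes that colon should not express, at their 95th percentile, and lay between 4.48 and 4.93. Between 48.5% and 52.8% of probes were above it. Values under a linear intensity of 5 were set to 5 (2.32 on the log2 scale), and the test ran on 21110 probes above that floor in at least 4 arrays. A gene was called at an adjusted p under 0.05 in limma, with Benjamini-Hochberg adjustment over all 21110 probes. Markers of skeletal muscle, a tissue the colon wall lacks, were over 3 log2 units higher than in healthy mice, on average, in day 9 mice 2, 3 and 5 and in mouse 5 of both day 14 and day 21. Columnar markers other than keratins (10 genes, among them Cdh17, Vil1 and Lgals4) averaged between 10.25 and 10.86 in every mouse. Single genes of this list varied more than its mean. Cldn7 was called lower on day 23 (-0.44, adjusted p = 0.0401), 1 of the 10, where 3.51% of all probes were called lower. Slc26a3 was above background in 18 of 34 mice and differed by -1.90 on day 9 (adjusted p = 0.205).

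Of the 47 keratin genes, 10 were above background in all 34 mice, 25 in some mice and 12 in no mouse. The 10 were all 6 simple keratins together with Krt10, Krt14, Krt17 and Krt80. With the 99th percentile of the receptor probes as background, 8 genes were above it in all mice and 21 in none. The 12 genes above background in no mouse were keratins of hair and appendages or of the suprabasal epidermis. For the test, 38 genes passed the floor: all 6 simple keratins, 3 of 3 basal, 4 of 4 mucosal suprabasal, 5 of 8 epidermal suprabasal, 3 of 4 wound keratins, Krt12 of the cornea, 15 of 20 hair and appendage genes, and Krt222.

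**Figure D1:**
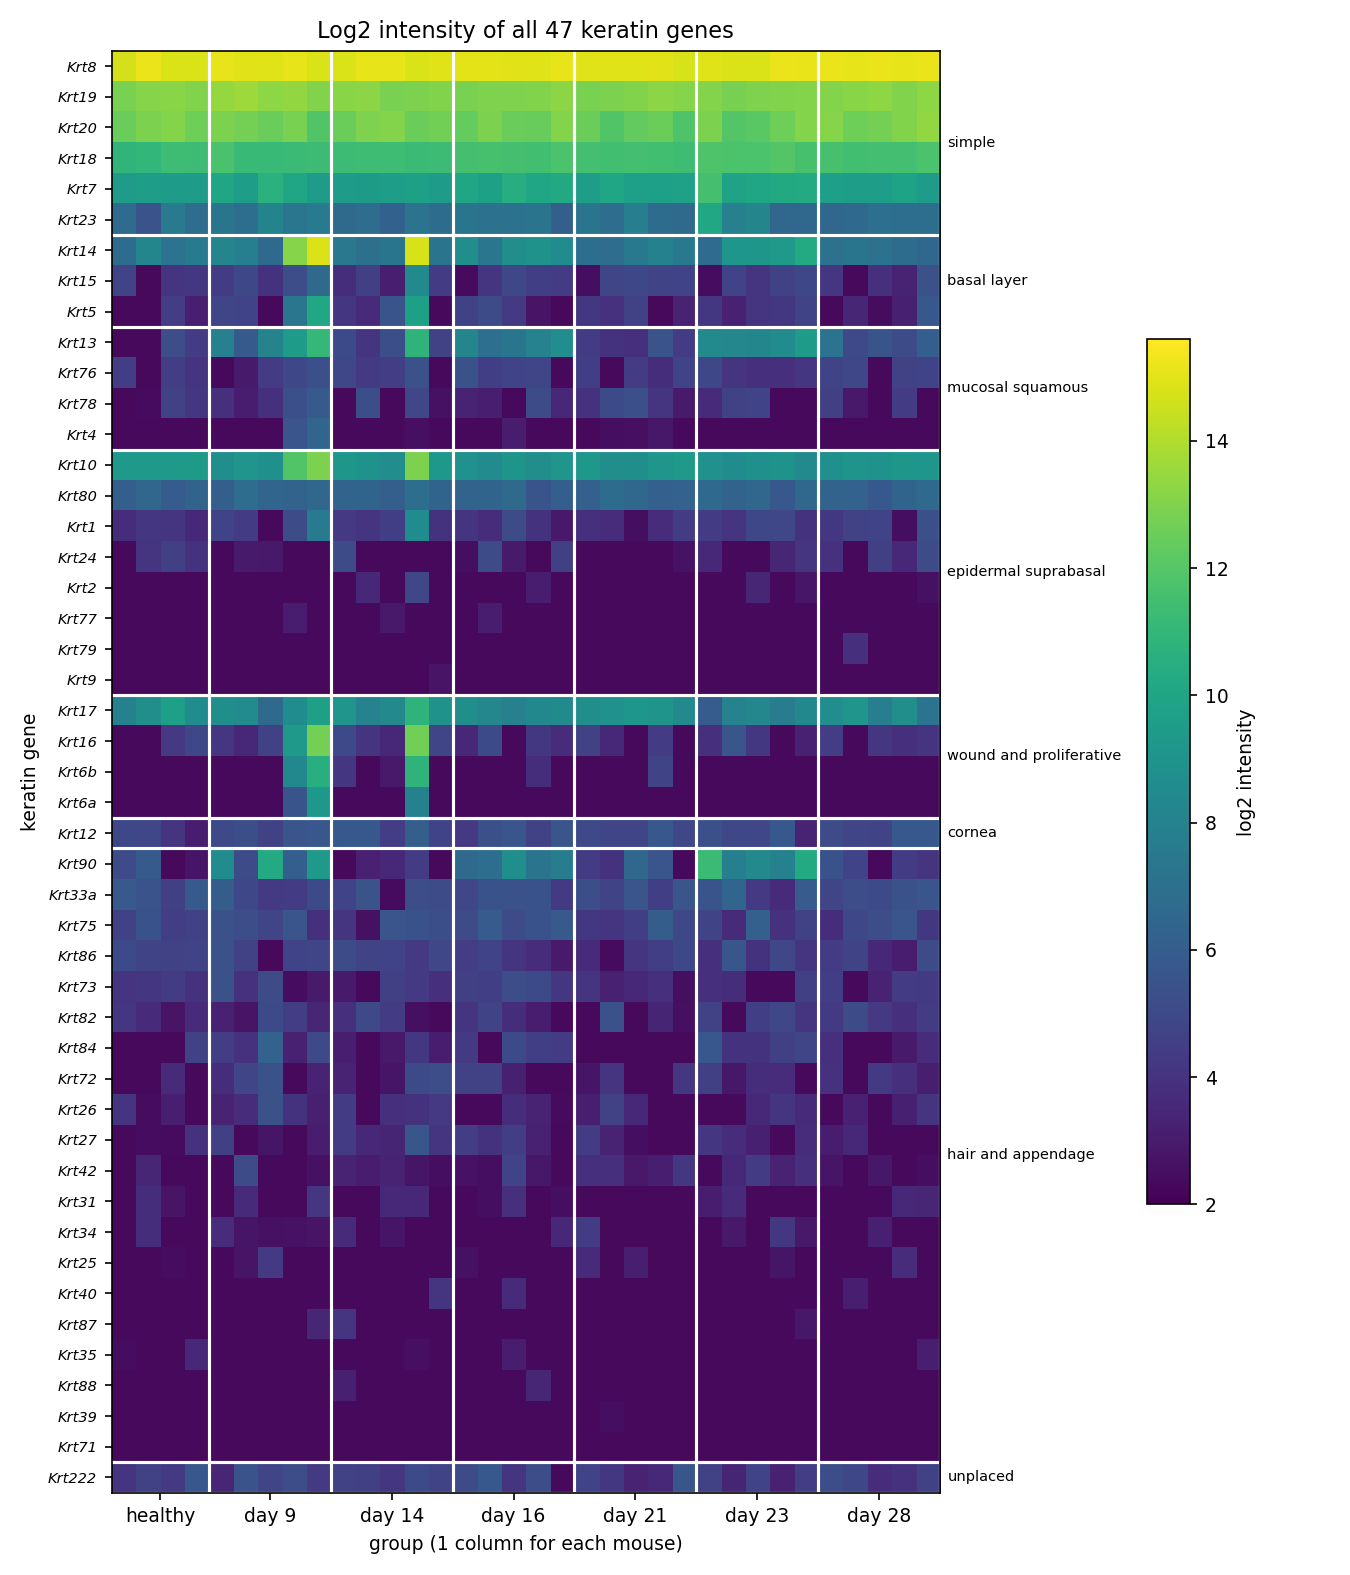
Log2 intensity of the 47 keratin genes (rows, grouped by class, 1 probe for each gene) in the 34 mice (columns, grouped by day). The simple keratins at the top are bright in every mouse, Krt13 and Krt90 are bright on days 9, 16 and 23, and mice 4 and 5 of day 9 and mouse 4 of day 14 stand out in Krt14, Krt16, Krt6b, Krt10 and Krt5. Probes differ in affinity, so colours compare mice within a row and not genes with each other.

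Few keratin genes differed from healthy mice, and with all mice in the fit no keratin was called lower on any day. Krt10 was lower without overlap on 3 days and was called lower on day 23 in other fits, as described below. The share of all probes called lower was 0.815% on day 9, 1.94% on day 16, 3.51% on day 23 and 0.535% on day 28, and it was 2.72% between 2 and 7 days and 0.0805% between days 23 and 9. On day 9, 2 of the 38 tested genes were called higher (Krt13 and Krt90), where 1.19% of all probes were called higher. Day 16 had 3 (Krt13, Krt18 and Krt90, background 1.98%), and day 23 had 4 (Krt13, Krt90, Krt18 and Krt7, background 3.49%). At 7 days after instillation, only Krt18 on day 28 was called (background 0.72%). No keratin was called by limma on day 14 (background 0.459% in either direction) or day 21 (0.701%). On these days 4 and 3 of the 38 genes had an unadjusted limma p under 0.05, against 2251 and 2460 of 21110 probes. The mean of the 2-day groups was then set against the mean of the 7-day groups, and 4 genes were called higher at 2 days (Krt13, Krt90, Krt7 and Krt84, background 2.96%). Over the 38 genes the median log2 difference in that comparison was 0.09, against -0.02 over all probes.

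The 4 genes called between 2 and 7 days are shown with their promoters because they are the members called in that comparison. Krt84 is 1 of them, although its call was lost with a floor of 20 (limma adjusted p = 0.122), as described below. Each line holds 300 bases, most of them before the start of the gene and the last ones past it, 5′ to 3′ on the gene's strand, from RefSeq on GRCm38.p6: chr11:100121517-100121816 on the minus strand for Krt13 (1 of 2 starts listed), chr15:101562901-101563200 on the minus strand for Krt90, chr15:101412153-101412452 on the plus strand for Krt7, and chr15:101532771-101533070 on the minus strand for Krt84. Capitals mark matches on either strand to TATAAA, its variant ATAAAA, the AP-1 motif TGANTCA and the GC box GGGCGG.
Krt13: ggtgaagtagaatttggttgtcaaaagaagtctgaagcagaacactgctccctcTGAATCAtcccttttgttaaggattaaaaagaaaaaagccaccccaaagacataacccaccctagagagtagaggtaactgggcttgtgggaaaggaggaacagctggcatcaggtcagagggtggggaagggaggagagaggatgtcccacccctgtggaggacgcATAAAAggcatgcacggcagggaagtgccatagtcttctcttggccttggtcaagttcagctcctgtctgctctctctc
Krt90: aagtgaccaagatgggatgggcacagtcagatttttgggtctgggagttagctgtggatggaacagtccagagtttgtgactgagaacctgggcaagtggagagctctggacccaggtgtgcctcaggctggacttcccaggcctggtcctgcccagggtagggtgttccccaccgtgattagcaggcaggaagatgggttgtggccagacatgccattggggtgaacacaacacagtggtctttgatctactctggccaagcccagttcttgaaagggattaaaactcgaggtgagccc
Krt7: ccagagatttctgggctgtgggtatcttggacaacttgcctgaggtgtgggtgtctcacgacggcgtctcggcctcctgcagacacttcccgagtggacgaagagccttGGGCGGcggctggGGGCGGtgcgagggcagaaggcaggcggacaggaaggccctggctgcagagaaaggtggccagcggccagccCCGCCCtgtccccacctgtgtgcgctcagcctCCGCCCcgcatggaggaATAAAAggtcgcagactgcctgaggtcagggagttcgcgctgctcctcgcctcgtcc
Krt84: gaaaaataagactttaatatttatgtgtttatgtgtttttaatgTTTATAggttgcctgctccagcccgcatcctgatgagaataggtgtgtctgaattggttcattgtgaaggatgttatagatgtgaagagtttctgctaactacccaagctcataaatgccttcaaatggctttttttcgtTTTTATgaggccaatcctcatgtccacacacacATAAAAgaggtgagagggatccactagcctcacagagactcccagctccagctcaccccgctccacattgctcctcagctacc
The Krt13 window holds ATAAAA at -29 and the AP-1 letters TGAATCA at -196. In the Krt84 window ATAAAA stands at -33, with a match on the other strand at -66 and one of TATAAA at -206. Krt7 differs from both in its 4 GC boxes, at -141, -128, -56 and -24, beside an ATAAAA at -7. None of the 4 motifs was found in the Krt90 window, which holds only the AP-2 letters GCCNNNGGC, at -130. The AP-2 letters also occur in the Krt7 window at -146, where they overlap a GC box, and at -70. TTCNNNGAA, the letters of a STAT site, was found in none of the 4 windows. These motifs are common: of 32851 promoters, 18.5% hold ATAAAA, 13.6% TATAAA, 7.81% TGANTCA, 35.7% GGGCGG, 16.6% GCCNNNGGC and 8.3% TTCNNNGAA. No searched motif was found in all 4 windows.

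Krt13, the type I keratin of the suprabasal layers of moist squamous mucosa such as oesophagus and tongue, was high 2 days after every instillation. The healthy mice had log2 intensities of 2.32, 2.32, 5.24 and 4.41, of which 1 was above background. On day 9 the 5 mice had 7.90, 5.84, 8.09, 9.47 and 11.07, on day 16 they had 8.18, 6.99, 7.27, 8.05 and 8.69, and on day 23 they had 8.47, 8.28, 8.24, 8.58 and 9.49. All 15 mice of these days were above background and above all 4 healthy mice. How many of all probes separated in this way was not counted, here or for any gene below.

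At 7 days after instillation the Krt13 signal was lower in most mice. Day 14 had 5.04, 4.07, 5.25, 10.83 and 4.65, day 21 had 4.41, 4.01, 3.91, 5.47 and 4.42, and day 28 had 7.2, 5.02, 5.51, 5.11 and 6.06. Mouse 4 of day 14 stood far above the other 4, and 9 of the 15 mice of these days were above background. With all mice, 1 of 15 at 2 days lay above every mouse at 7 days, because of mouse 4 of day 14. Without the 3 mice described further down, 11 of 13 mice at 2 days lay above all 14 mice at 7 days. That choice was made after the values were seen and removes the highest 7-day mouse in Krt13. The second count is thus a description and no test.

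The Krt13 difference from healthy was 4.90 on the log2 scale on day 9 (SE 0.97, limma adjusted p = 0.00617), 4.26 on day 16 (adjusted p = 0.0105) and 5.04 on day 23 (adjusted p = 0.00138). These sizes rest on healthy values at the floor: with a floor of 20 they were 3.90, 3.26 and 4.04. Between 2 and 7 days the difference was 2.91 (SE 0.53, limma adjusted p = 0.000687). Only 9 of the 15 mice at 7 days were above background, so no fold is given. Over 11 other settings this difference ran from 2.41 to 2.94. Day 14 (2.39, adjusted p = 0.33), day 21 (0.87, adjusted p = 0.803) and day 28 (2.21, adjusted p = 0.309) did not pass the test. The day 16 call was lost without healthy mouse 1 (adjusted p = 0.0553), and the day 9 call in a fit of day 9 and healthy mice alone (adjusted p = 0.161).

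**Figure D2:**
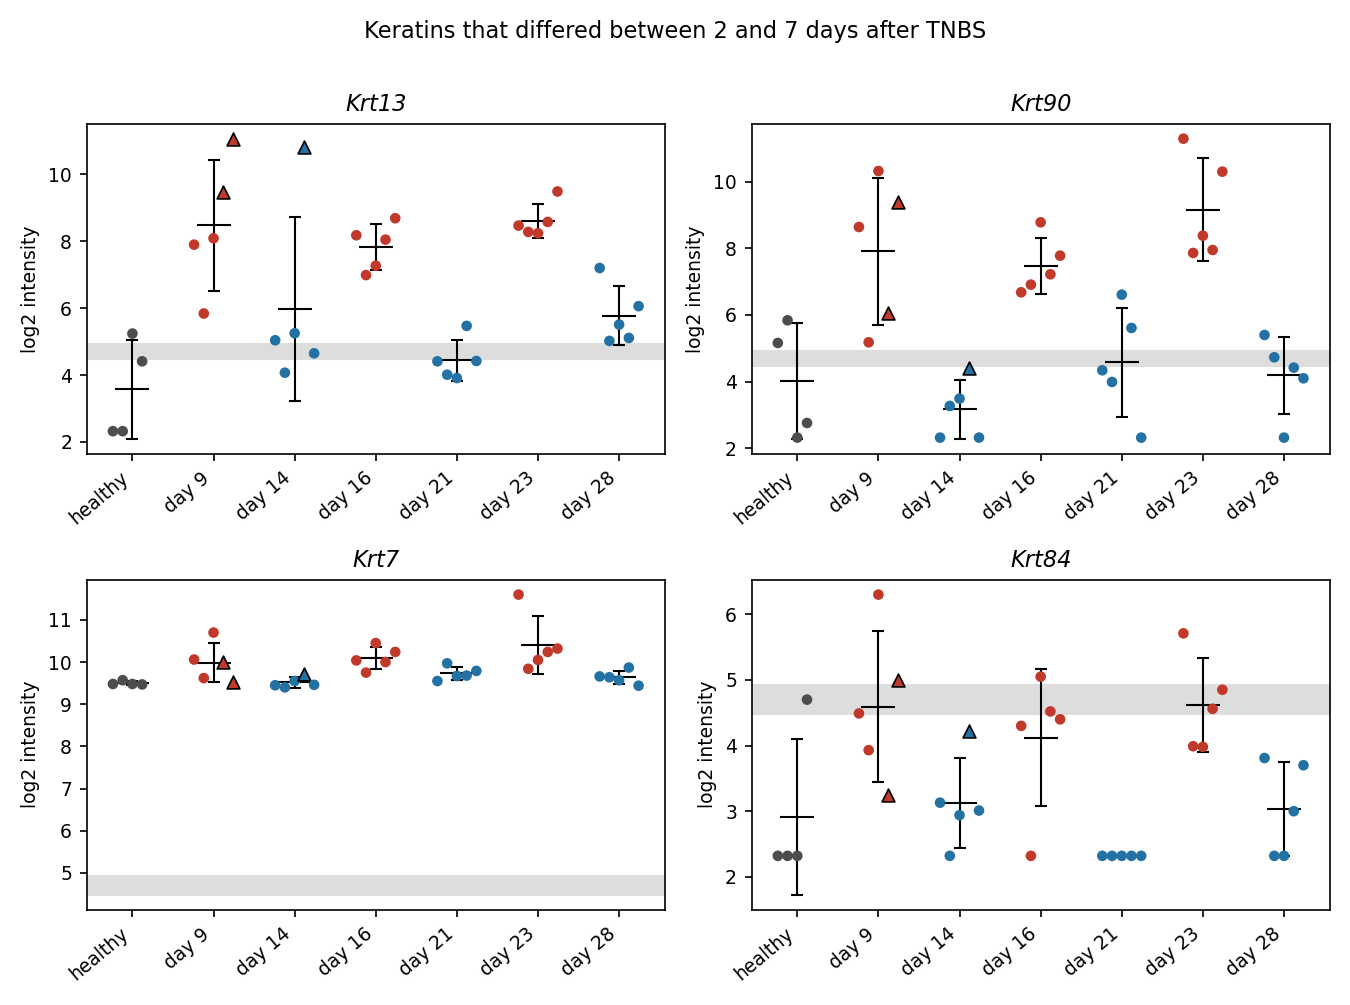
Log2 intensity of Krt13, Krt90, Krt7 and Krt84 in each mouse (points, n = 4 healthy and n = 5 on each day), with the mean and SD of each group in black. Red marks days 9, 16 and 23 (2 days after instillation), blue marks days 14, 21 and 28 (7 days after), triangles mark mice 4 and 5 of day 9 and mouse 4 of day 14, and the grey band is the range of background. Krt13 and Krt90 were above background in 15 of 15 mice at 2 days, and Krt84 in 7 of 15, whereas the median of Krt84 was at the floor of 2.32 at 7 days and in healthy mice.

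Krt90, a type II keratin gene, followed the same timing. Healthy mice had 5.16, 5.84, 2.32 and 2.76. At 2 days the values were 8.64, 5.18, 10.32, 6.05 and 9.38 on day 9, 6.68, 6.91, 8.78, 7.22 and 7.78 on day 16, and 11.29, 7.86, 8.38, 7.95 and 10.30 on day 23. All 15 were above background and 14 were above all healthy mice, the exception being mouse 2 of day 9.

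At 7 days Krt90 was above background in 4 of 15 mice. The values were 2.32, 3.27, 3.49, 4.42 and 2.32 on day 14, 4.34, 3.99, 6.61, 5.61 and 2.32 on day 21, and 5.40, 4.73, 2.32, 4.42 and 4.10 on day 28. Of the 15 mice at 2 days, 13 lay above every mouse at 7 days. For this count and the one against healthy mice, the share of all probes was not counted.

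Between 2 and 7 days Krt90 differed by 4.20 on the log2 scale (SE 0.53, limma adjusted p = 6.56e-06). This size rests on 7-day values at or under background: it was 3.51 with a floor of 20 and 3.27 with an offset of 16, so no fold is given. Against healthy mice the difference was 3.89 on day 9 (SE 0.97, adjusted p = 0.0312), 3.45 on day 16 (adjusted p = 0.039) and 5.14 on day 23 (adjusted p = 0.0012). The day 23 call held without any 1 mouse, whereas the other days did not: on day 9 it was lost without mouse 1, 3 or 5 of that day or healthy mouse 3 or 4, and on day 16 without any of 7 mice (mice 2 to 5 of that day and healthy mice 1, 3 and 4), with an adjusted p of up to 0.12 and 0.147. The day 16 call was also lost with a floor of 20 (2.56, adjusted p = 0.0584), with the offset of 16 (adjusted p = 0.0516), with the mouse number as a block (adjusted p = 0.058) and in a fit of day 16 and healthy mice alone (adjusted p = 0.065). In a fit of day 9 and healthy mice alone the day 9 call was lost too (adjusted p = 0.269). The day 9 call of Krt90 was also lost without the mice with skeletal muscle markers (adjusted p = 0.15) and without mice 4 and 5 of day 9 and mouse 4 of day 14 (adjusted p = 0.0747), whereas Krt13 remained called on day 9 without either set (adjusted p = 0.0354 and 0.0032).

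Across mice, the relation of Krt13 to Krt90 did not pass a permutation test. Over the 15 mice at 2 days, all 3 days pooled, Pearson's r was 0.425 (permutation p = 0.114, 0.455 after Benjamini-Hochberg adjustment over 4 relations) and Spearman's rho was 0.304 (permutation p = 0.269, adjusted 0.539). Without the 2 mice farthest from the median of Krt13, r was 0.09. Over the 15 mice at 7 days r was 0.149 (permutation p = 0.608, adjusted 0.81) and rho 0.132 (permutation p = 0.64, adjusted 0.812), and it was -0.12 without the 2 farthest mice. On chromosome 15 Krt90 lies between Krt82 and Krt75, with Krt84 on the far side of Krt82, whereas Krt13 lies on chromosome 11 between Krt36 and Krt15.

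Krt7, the type II keratin of ducts and of transitional and glandular linings, rose less and from a level far above background. Healthy mice lay close together at 9.48, 9.57, 9.48 and 9.47. At 2 days after instillation the mice had 10.06, 9.62, 10.70, 10.01 and 9.53 on day 9, 10.04, 9.75, 10.45, 10 and 10.24 on day 16, and 11.60, 9.84, 10.05, 10.24 and 10.32 on day 23. All mice of days 16 and 23 and 4 of 5 on day 9 lay above all healthy mice. For such separations the share of all probes was not counted.

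At 7 days Krt7 lay between 9.40 and 9.97, and 11 of the 15 mice at 2 days were above that range. The difference between 2 and 7 days was 0.54 (SE 0.13, limma adjusted p = 0.00942), or 1.45-fold. Against healthy mice the call passed on day 23 (0.91, SE 0.23, adjusted p = 0.0143) and not on day 9 (0.48, adjusted p = 0.325) or day 16 (0.60, adjusted p = 0.159). Mouse 1 of day 23, at 11.60, was the highest of all, and without it the day 23 difference was 0.61 (adjusted p = 0.0284). In a fit of day 23 and healthy mice alone the call was lost (adjusted p = 0.208).

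Krt84, a type II hair keratin, had few mice above background. Only 7 of 15 mice at 2 days were above background, against 0 of 15 at 7 days and 0 of 4 healthy mice, and its values ran from 2.32 to 6.30, from 2.32 to 4.22 and from 2.32 to 4.70. It passed the test between 2 and 7 days (limma adjusted p = 0.00114). No fold is given because its mean at 2 days did not exceed what background would give, and with a floor of 20 the call was lost (adjusted p = 0.122). Markers of hair follicle other than keratins (3 genes) stayed at or near the floor in all groups.

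Markers that share this timing were read beside these genes. Of 20 squamous markers that are not keratins, 16 were tested, and 1 was called higher between 2 and 7 days (background 2.96%). This was Sprr1a, a cross-linked envelope protein that damaged epithelium also makes (1.11, SE 0.22, limma adjusted p = 0.00162). Its differences from healthy were 1.54 on day 9, 1.40 on day 16 and 1.54 on day 23, with adjusted p of 0.0354, 0.0412 and 0.0147. Ly6d, a surface protein of squamous cells, did not pass (1.36 between 2 and 7 days, adjusted p = 0.0542). Tgm3, a transglutaminase gene above background in all 34 mice, was lower at 2 days (-0.67, adjusted p = 0.0117) and on day 23 (-1.36, adjusted p = 0.00479).

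The list as a whole was mixed. Pkp1, Sfn, Lor, Sprr1a and Tgm3 were above background in all 34 mice. Trp63, the transcription factor of the basal layer, was above it in 2 mice, which are described further down with their own keratin pattern. Dsc3, Dsg1a, Sprr3, Ivl and Serpinb5 were above background in no mouse and Dsg3 in 1, and none of these 6 was above it in the 3 mice with high squamous keratins. Neutrophil markers also had this timing, with 3 of 4 tested genes called higher between 2 and 7 days (background 2.96%). Their summed linear intensity lay between 162.6 and 16478.8 at 2 days, against 40.4 to 6840.4 at 7 days. Smooth muscle markers ran the other way, with 3 of 6 called lower at 2 days (background 2.72%). The median over this list was -0.46, against -0.02 over all probes. Myh11, the smooth muscle myosin, differed by -0.56 (adjusted p = 0.0026) and Tagln, an actin-binding protein, by -0.57 (adjusted p = 0.0286). Des, the desmin of muscle, differed by -0.31 (adjusted p = 0.0401). Their summed linear intensity lay between 32077.3 and 68131.3 at 2 days and between 50566.3 and 70618.4 at 7 days. Whether the amounts of squamous cells, inflammatory cells or muscle had a part in the keratin values was not tested.

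Among the simple keratins, Krt18 was the one that changed on more than 1 day. KRT18 is the type I partner of KRT8 in columnar cells. Healthy mice had 10.90, 11.03, 11.40 and 11.34. Values on day 9 were 11.69, 11.22, 11.15, 11.25 and 11.30, and on day 14 they were 11.30, 11.40, 11.40, 11.26 and 11.32, so both days overlapped the healthy range.

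From day 16 on, every mouse had more Krt18 signal than every healthy mouse. On day 21 the margin was minimal, as the lowest mouse and the highest healthy mouse both round to 11.40. The share of all probes that separated in this way was not counted. Day 16 had 11.60, 11.63, 11.59, 11.50 and 11.76, and day 21 had 11.55, 11.48, 11.51, 11.47 and 11.40. Day 23 had 11.85, 11.75, 11.77, 11.94 and 11.62, and day 28 had 11.66, 11.48, 11.55, 11.55 and 11.74. Within each of these days the 5 mice spanned at most 0.31, against 0.50 in the healthy mice.

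The Krt18 differences from healthy were small and were called on days 16 (0.45, SE 0.10, limma adjusted p = 0.0115), 23 (0.62, adjusted p = 0.000379) and 28 (0.43, adjusted p = 0.0309), or 1.37-fold, 1.54-fold and 1.35-fold. On day 9 the difference was 0.15 (95% interval -0.06 to 0.37, adjusted p = 0.526), on day 14 it was 0.17 (-0.04 to 0.38, adjusted p = 0.596) and on day 21 it was 0.31 (0.10 to 0.52, adjusted p = 0.17). Without healthy mouse 1, the lowest, the differences were 0.36 on day 16 (adjusted p = 0.0788), 0.53 on day 23 (adjusted p = 0.00411) and 0.34 on day 28 (adjusted p = 0.17). The day 28 call was also lost without healthy mouse 2 or mouse 1 or 5 of day 28, and with the mouse number as a block (adjusted p = 0.0528). Fits of only the groups compared lost all 3 calls, with an adjusted p of 0.0828 on day 16, 0.0525 on day 23 and 0.138 on day 28.

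Day 23 was compared with day 9 directly, since both follow an instillation by 2 days. Krt18 was 0.46 higher on day 23 (SE 0.10, adjusted p = 0.028), the only keratin called where 0.114% of all probes were called higher. That call was lost without mouse 2, 3 or 4 of either day, with an adjusted p of up to 0.0965. Between days 28 and 14 no keratin was called by limma (background 0.00947% in either direction). An unadjusted limma p under 0.05 was found there for 4 of 38 keratin genes, against 1680 of 21110 probes. Krt18 did not follow the timing of Krt13: between 2 and 7 days its difference was 0.10 (95% interval -0.01 to 0.22, adjusted p = 0.333).

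**Figure D3:**
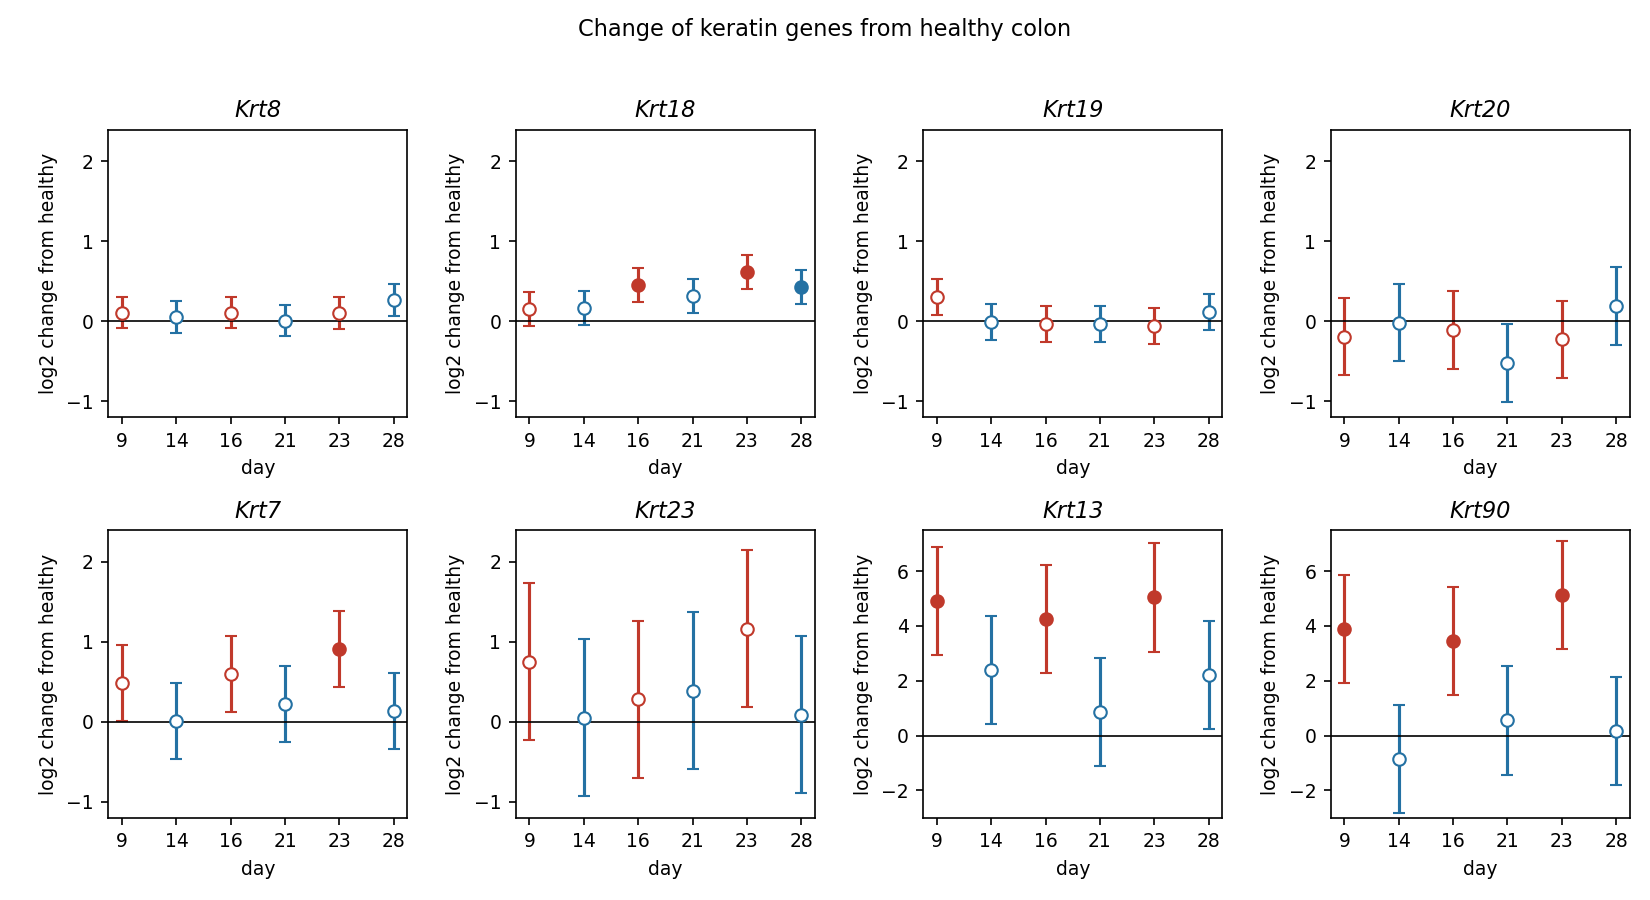
Log2 change from healthy mice on each day for the 6 simple keratins and for Krt13 and Krt90, as points with 95% intervals from limma. Red marks 2 days and blue 7 days after instillation, filled points have an adjusted p under 0.05, and the last 2 panels have a wider axis. Krt18 runs from 0.15 on day 9 to 0.62 on day 23, while Krt8 stays between 0.01 and 0.27.

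Krt8, the type II partner of Krt18 and its direct neighbour on chromosome 15, passed the test on no day. Healthy mice had 14.70, 15.21, 14.85 and 14.83. All 5 mice of day 28 lay high, at 15.18, 15.10, 15.21, 15.12 and 15.21, but within the healthy range, with a difference of 0.27 (95% interval 0.07 to 0.47, limma adjusted p = 0.197, or 0.0451 without healthy mouse 2). On day 23 the difference was 0.10 (-0.10 to 0.30, adjusted p = 0.63). The Krt8 probe ranked between 7 and 29 of 25697 on every array and took 17 distinct values over the 34 mice. At such ranks quantile normalisation fixes the value by rank alone, so a change in Krt8 would show on these arrays only as a change of rank.

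Krt19, a type I keratin of the crypt, and Krt20, the type I keratin of differentiated surface cells, also passed in no comparison. Krt19 lay between 12.83 and 13.63 in all 34 mice, with the day 9 mice at 13.45, 13.63, 13.27, 13.39 and 13.02, 4 of them above all healthy mice (difference 0.30, 95% interval 0.07 to 0.53, limma adjusted p = 0.163). Day 23 was lower than day 9 in Krt19 by 0.36 (adjusted p = 0.191). On day 21 Krt20 had 12.57, 11.90, 12.34, 12.57 and 11.86 against 12.49, 12.94, 13.07 and 12.59 in healthy mice, a difference of -0.52 (-1.01 to -0.04, adjusted p = 0.375).

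Krt23, a type I keratin of simple epithelia, had the most spread of the 6 simple members. Healthy mice had 6.74, 5.47, 7.67 and 6.88, and day 23 had 10.14, 7.90, 8.20, 6.51 and 6.54, so 3 of the 5 were above all healthy mice. The difference on day 23 was 1.17 (95% interval 0.18 to 2.15, limma adjusted p = 0.152), and without the highest mouse it was 0.60. Mouse 1 of day 23 was thus the highest of all 34 mice in Krt7, Krt23 and Krt90.

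**Figure D4:**
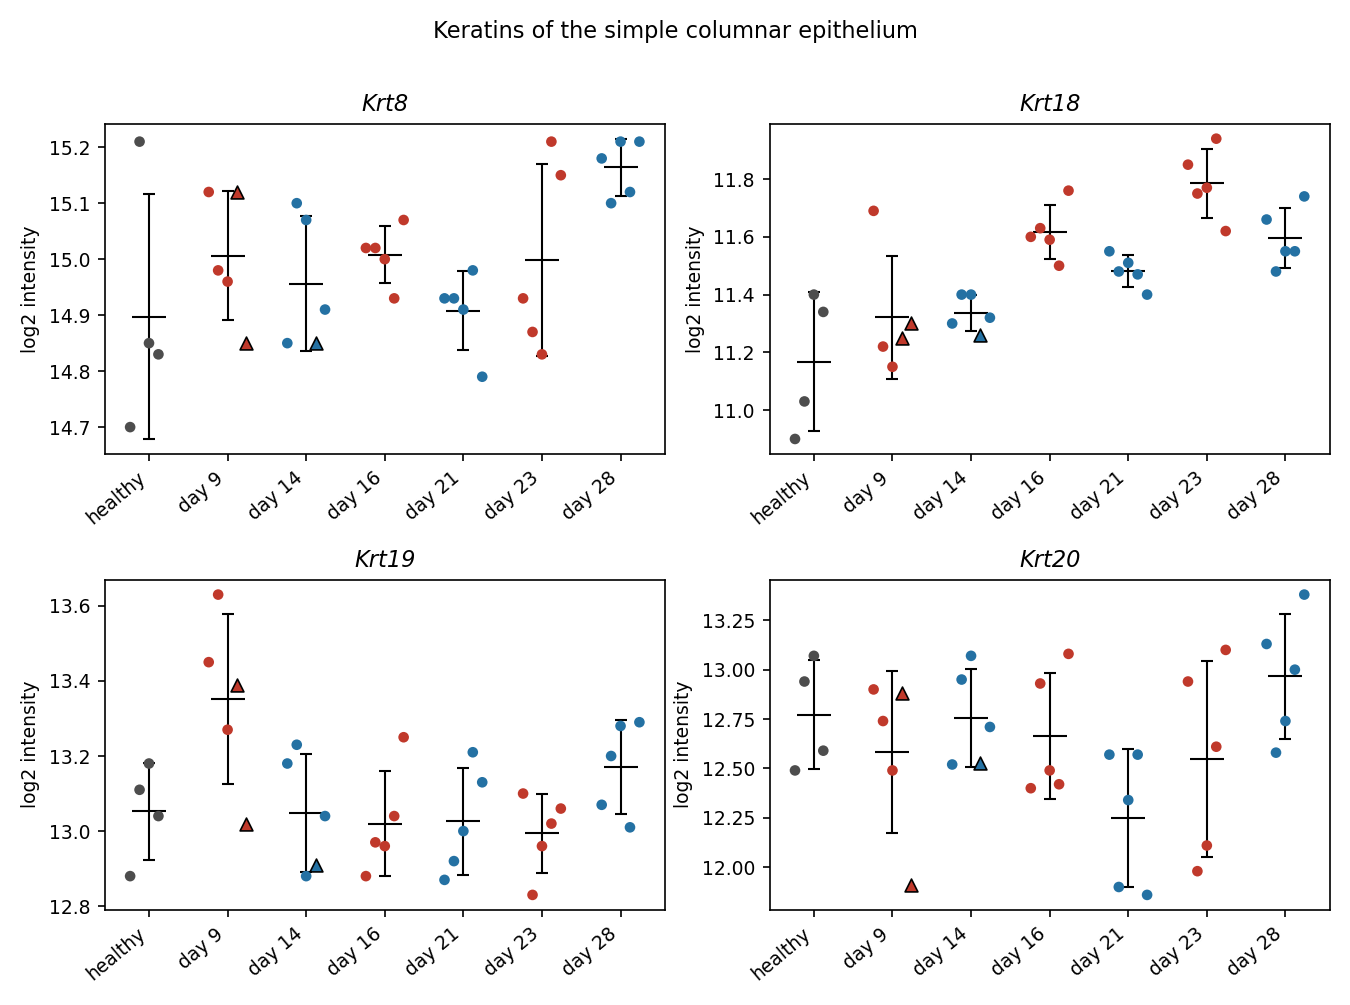
Log2 intensity of Krt8, Krt18, Krt19 and Krt20 in each mouse (points), with the mean and SD of each group in black and a separate axis for each gene (n = 4 healthy, n = 5 on each day). Red marks 2 days and blue 7 days after instillation, and triangles mark mice 4 and 5 of day 9 and mouse 4 of day 14. The mice of days 16, 21, 23 and 28 lie above all healthy mice in Krt18, whereas the groups overlap in the other 3 genes.

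A second set of keratins, those of squamous epithelium and wound repair, was carried by 3 mice: mice 4 and 5 of day 9 and mouse 4 of day 14. These mice were picked out by their values, so the differences below are a description with no test. In 6 of the 47 genes all 3 were above each of the other 31 mice. These were Krt14 and Krt5 of the basal layer, Krt16, Krt6a and Krt6b of wounded epithelium, and Krt10 of the suprabasal epidermis. The share of all probes with these 3 mice above all others was not counted, here or for the markers below. No simple keratin had any of the 3 mice above all others.

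Krt14 had 13.11 and 14.89 in mice 4 and 5 of day 9 and 14.77 in mouse 4 of day 14, against 6.55 to 10.34 in the others. Its partner Krt5 had 7.32, 10.17 and 9.74, against 2.32 to 5.77. Krt16 had 9.28, 12.74 and 12.69, against 2.32 to 5.56. In each of these genes mouse 4 of day 9 was the lowest of the 3.

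Krt6a was at the floor in all 31 other mice and had 5.55, 9.26 and 7.99 in the 3, too few arrays for it to enter the test. Krt6b had 8.33, 10.60 and 10.86, against 2.32 to 4.79. Krt10 had 11.93, 12.92 and 12.91, against 8.49 to 9.39, a narrow range in which it was above background in every mouse. Its partner Krt1 reached 5.18, 7.63 and 8.64, against at most 5.33.

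Members at the edge of the set were less uniform. Krt15 of the basal layer had 5.24, 6.68 and 8.51 against at most 5.38, and Krt17 had 8.59, 9.73 and 10.87 against 5.97 to 9.66. Krt4, the partner of Krt13, had 5.61 and 6.43 in the day 9 mice and 2.58 in the day 14 mouse, which was under background, and was at most 3.1 in the others. Krt13 itself was 9.47, 11.07 and 10.83 in these mice. Krt6a with Krt6b, and Krt14 with Krt16 and Krt17, have very similar sequences, and cross-hybridisation between their probes was not tested.

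Squamous markers other than keratins were high in the same 3 mice. Their mean over 20 genes was 6.0, 7.17 and 6.96, against 4.00 to 4.52 in each of the other mice, and their summed linear intensity was 5973.5, 12530.7 and 9806.9, against 1381.7 to 2038.1. Of the 20 genes, 12, 14 and 14 were above background, against 5 to 9 in the others, and in 9 of the 20 all 3 mice were above each of the other 31. Lypd3, a surface protein of suprabasal cells, had 7.98, 10.10 and 10.59 against at most 4.55. Trp63 had 4.56, 7.83 and 7.23 against at most 3.58, and the first of these was not above background. Dsg3, Dsc3, Dsg1a, Sprr3, Ivl and Serpinb5 were not above background in any of the 3. Mouse 5 of day 9 also had the skeletal muscle markers, and the other 2 did not. The part of squamous tissue from beyond the colon in these values was not tested.

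**Figure D5:**
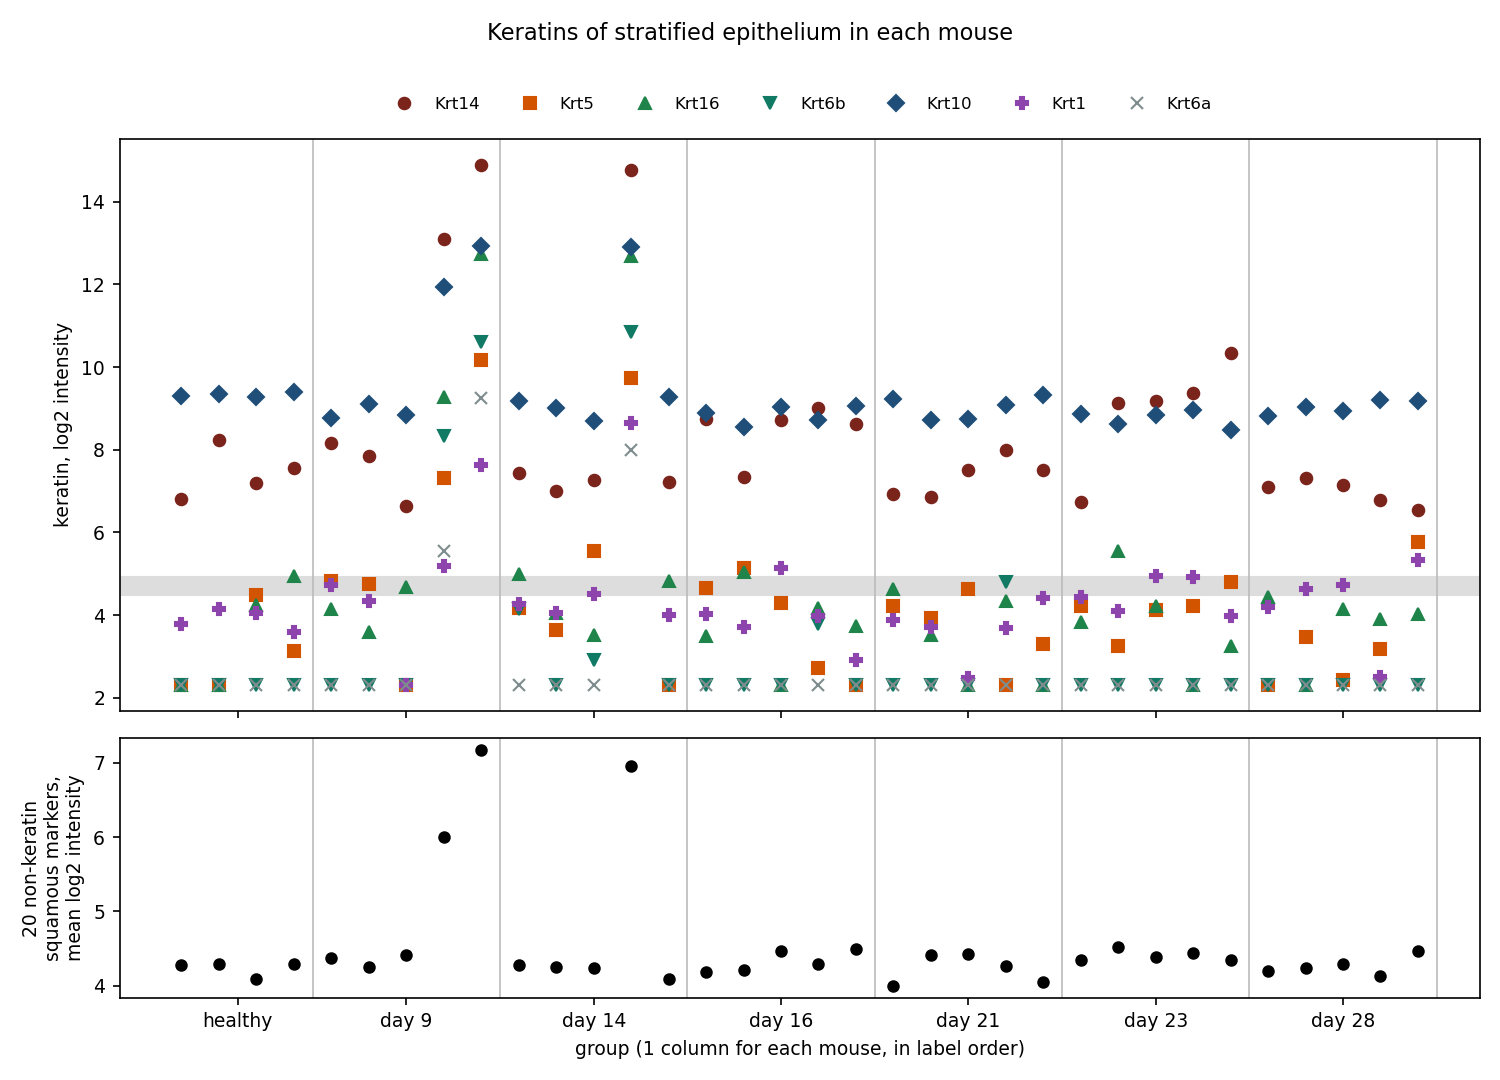
Upper panel, log2 intensity of Krt14, Krt5, Krt16, Krt6b, Krt10, Krt1 and Krt6a in each mouse (1 column for each mouse, groups divided by lines), with the range of background in grey. Lower panel, mean log2 intensity of 20 squamous markers that are not keratins in the same mice. Mice 4 and 5 of day 9 and mouse 4 of day 14 are high in both panels, with marker means of 6.0, 7.17 and 6.96 against at most 4.52.

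With all mice in the fit these keratins passed no test against healthy mice. On day 9 the differences were 2.68 for Krt14 (SE 1.31, limma adjusted p = 0.33), 2.82 for Krt5 (adjusted p = 0.233) and 3.43 for Krt16 (adjusted p = 0.256). For Krt10 the day 9 difference was 0.98 (adjusted p = 0.531) and turned to -0.43 without the 3 mice (adjusted p = 0.247).

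Outside those 3 mice, Krt10 lay below the healthy range on several days. Healthy mice lay close together, at 9.30, 9.34, 9.28 and 9.39. Day 16 had 8.88, 8.56, 9.03, 8.73 and 9.07, and day 23 had 8.87, 8.62, 8.85, 8.97 and 8.49. Day 28 had 8.82, 9.03, 8.93, 9.21 and 9.17. All 5 mice of each of these days were below all healthy mice. The share of all probes that separated in this way was not counted.

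With all mice in the fit, where the 3 high mice widen the spread of Krt10, the differences were -0.47 on day 16 (SE 0.67, limma adjusted p = 0.805), -0.56 on day 23 (adjusted p = 0.719) and -0.29 on day 28 (adjusted p = 0.929). In fits of only the groups compared, Krt10 was called lower on day 23 (SE 0.11, adjusted p = 0.0466) and not on day 16 (adjusted p = 0.0648) or day 28 (adjusted p = 0.173). Without the 3 mice, a choice made after the values were seen, it was also called on day 23 (SE 0.14, adjusted p = 0.0152) and not on day 16 (adjusted p = 0.0618) or day 28 (adjusted p = 0.378). These mice were picked out by their values, and Krt10 is among the genes they were high in. The fit without them is thus a description and no test of Krt10.

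Krt14 also had values of its own in the other mice. On day 16 the 5 mice had 8.74, 7.34, 8.72, 9.00 and 8.62 and on day 23 they had 6.73, 9.12, 9.19, 9.38 and 10.34, against 6.80, 8.24, 7.19 and 7.57 in healthy mice, so 4 of 5 on each day were above all healthy mice. Days 21 and 28 ran from 6.55 to 7.99. Between 2 and 7 days the difference was 1.5 with all mice (SE 0.71, limma adjusted p = 0.254). It passed without mouse 4 of day 14 alone (2.00, adjusted p = 0.0356), the only 1 of 30 fits leaving out 1 mouse. Without all 3 mice it also passed (1.14, SE 0.28, adjusted p = 0.0163). Then 9 of 13 mice at 2 days were above all 14 at 7 days. The 3 mice were chosen after the values were seen, for high squamous keratins that include Krt14. These fits and counts are thus a description and no test of Krt14. How many of all probes gave such counts was not examined.

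The other keratins above background moved less. Krt80 lay between 5.52 and 6.89 in all mice. Krt17 was lower in mouse 1 of day 23 (5.97) than in any other, and its day 23 difference was -1.07 (limma adjusted p = 0.258). Krt12, a corneal keratin, ran from 3.04 to 6.10 and differed by 1.14 on day 14 (adjusted p = 0.272). Krt33a, Krt75, Krt86 and Krt222 reached at most 6.42 in any mouse with overlapping groups and no call. The remaining genes were above background in at most 10 mice and passed in no comparison.

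Genes whose proteins anchor keratin filaments were read from a list of 15 (plakins, desmosomal and hemidesmosomal proteins), of which 13 were measured and 12 tested. Between 2 and 7 days 0 were called higher and 1 lower (background 2.96% and 2.72% of all probes). The 1 was Eppk1, epiplakin, which binds keratin filaments in simple epithelium (-0.32, SE 0.08, limma adjusted p = 0.00947). On day 23, 1 was higher and 2 were lower (background 3.49% and 3.51%). Itga6, a subunit of the laminin-binding integrin of hemidesmosomes, rose by 1.27 (adjusted p = 0.00789), and the desmosomal cadherin Dsg2 fell by 0.84 (adjusted p = 0.000671), with Eppk1 lower by -0.62 (adjusted p = 0.00548). Dsg2 was lower on earlier days too, by -0.59 on day 9 (adjusted p = 0.0351), by -0.69 on day 14 at 7 days after instillation (adjusted p = 0.0317) and by -0.79 on day 16 (adjusted p = 0.00301). Its difference between 2 and 7 days did not pass (-0.21, adjusted p = 0.132). Itga6 was also higher on day 16 (1.29, adjusted p = 0.0125). Of the other intermediate filament genes Vim, Des, Lmna and Lmnb1, only Des, given above with the smooth muscle markers, was called between 2 and 7 days.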

How the data were processed

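Distal colon RNA of 34 mice was hybridised to Illumina MouseRef-8 arrays, 1 array for each mouse. The deposited log2 values had been background-subtracted and quantile normalised by the authors; the submitters' processing notes name GenomeStudio. The log2 scale was inferred from the values, and 68 columns of a second, non-normalised table were not used because their names could not be tied to mice.

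Groups came from the sample titles. Values were floored at a linear intensity of 5, and the 21110 probes that exceeded this floor on 4 or more arrays were fitted in limma 3.58.1 (R 4.3.3; Python 3.11.15 for summaries) as 7 groups with 1 shared estimate of spread (27 residual degrees of freedom). Where a gene had several probes (5 keratin genes), the one with the highest mean stood for it. Of all probes, 23978 had 1 gene symbol, 0 several and 1719 none. The number of arrays limits the precision.

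Members, classes and marker lists were chosen with earlier results of these data known. Values in each mouse were given for the simple keratins, for every called member and for members above background in no fewer mice of some group than not (22 genes in all), the dimmer of these as ranges. Mouse numbers in the labels did not pair animals across days: over 99 same-number pairs the correlation of deviations ran from -0.13 to 0.15. Nothing says that RNA was pooled. Correlations used 100000 permutations. The fit was tested on simulated data. Alternatives were another floor, an offset of 16, other filters, weights, a replicate block, and leaving out mice.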

Additional observations from a re-analysis of the deposited data

Results flagged for a closer look

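In 20 of 154 sets of a keratin gene in 1 group (13.0%), 1 mouse lay apart from the others by Dixon's test. The nominal rate of about 1 in 20 cannot be set against this count, because values at the floor tie and the sets share mice. In the Krt84 set of healthy mice, for example, all other mice were at 2.32. Mouse 4 of day 14 accounts for 6 of them, with 8.64 for Krt1, 12.91 for Krt10, 10.83 for Krt13, 14.77 for Krt14, 8.51 for Krt15 and 12.69 for Krt16, all high. High mice were also found in Krt12 (5.70, mouse 4 of day 21), Krt13 (9.49, mouse 5 of day 23), Krt18 (11.69, mouse 1 of day 9), Krt7 (11.60, mouse 1 of day 23, and 9.57, healthy mouse 2, whose group spans little) and Krt84 (4.70, healthy mouse 4). Low mice were found in Krt14 (7.34) and Krt84 (2.32), both mouse 2 of day 16, in Krt15 (2.48, mouse 1 of day 21), Krt16 (2.32, mouse 2 of day 28) and Krt17 (5.97, mouse 1 of day 23), and in Krt23 (6.14, mouse 5 of day 16), Krt33a (2.41, mouse 3 of day 14) and Krt86 (2.32, mouse 3 of day 9). Between instillations, Krt18 was 0.46 higher on day 23 than on day 9 on the log2 scale (limma adjusted p = 0.028). That call held in only 4 of 10 fits that left out 1 mouse and in 6 of 11 other settings.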

How the results depend on the processing

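Counts of called keratin genes kept within 1.5 times of the reported ones under the other floor, the offset, the probe filters, robust moderation and the probe average, although Krt90 lost its day 16 call with the other floor (adjusted p = 0.0584), the offset (adjusted p = 0.0516) and the replicate block (adjusted p = 0.058). A fit of only the groups compared called 0 genes on day 9, 1 on day 16, 0 on day 28 and 0 between days 23 and 9, where fewer samples set the spread. Mouse number as a replicate block gave 0 on day 28 and 0 between days 23 and 9, and changed no other count by over 1.5 times. Array weights gave 0 between days 23 and 9. Without the mice with skeletal muscle markers, day 9 had 1 and days 23 against 9 had 0, and the same counts of 1 and 0 came without mice 4 and 5 of day 9 and mouse 4 of day 14 (chosen after seeing the data), where the day 9 difference of Krt10 turned to -0.43. The same removal gave 5 genes on day 23, with Krt10 called lower, and the fit of only the groups compared gave 3 there, also with Krt10 lower. The removed mice were high in Krt10 itself, so the first of these calls is no test of it. Apart from fewer samples, the cause was not tested. Leaving out 1 mouse at a time gave 1 to 3 genes on day 9, 0 on day 14, 0 to 3 on day 16, 0 on day 21, 4 to 5 on day 23, 0 to 1 on day 28, 4 to 5 between 2 and 7 days, 0 to 1 between days 23 and 9, and 0 between days 28 and 14. Low intensity limits Krt84, and values at the floor limit the fold changes of Krt13 and Krt90.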
